A study of Mus musculus with 8 samples.

Results

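The genes examined here encode the enzymes with which the intestinal epithelium makes reactive oxygen and nitric oxide at its surface. They were the dual oxidases Duox1 and Duox2, their maturation factors Duoxa1 and Duoxa2, the NADPH oxidase Nox1 with its organiser Noxo1 and its membrane partner Cyba, and the inducible nitric oxide synthase Nos2. The 8 genes were picked by symbol from the 25239 genes of the count table, and all 8 were found. They were chosen on measured values, with the difference between CD1d-KO and WT samples in this table already known, so the difference between genotypes is given for them as a description. No p-value is printed for them, and where some are counted as past a threshold, the count is part of that description and tests nothing.

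The study asked whether natural killer T (NKT) cells, which see lipids on the molecule CD1d, influence intestinal epithelial cells (IECs). Bulk RNA-seq was made from epithelial cells of the crypts of the proximal small intestine, gated on EpCAM with CD45, CD31 and Ter119 excluded, and there were 4 CD1d-KO and 4 WT samples from 4 mice of each genotype. CD1d-KO mice, labelled CD1d1/2 KO, carry the deletion Del(3Cd1d2-Cd1d1)1Sbp of both Cd1d genes and lack NKT cells, while WT mice were labelled C57BL/6Jax. By the study's methods mice were 7 to 10 weeks old, kept free of specific pathogens, and males and females were matched between genotypes, and none of these samples had a treatment. The deletion is carried in all tissues, so it is not limited to the epithelium. By the paper's limitations the mice were not littermates, which may affect the make-up of their gut microbiota. Genotype and such a difference in microbiota cannot be told apart here.

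Dual oxidases release hydrogen peroxide from the apical membrane of epithelial cells and reach the membrane only together with a maturation factor, DUOXA1 for DUOX1 and DUOXA2 for DUOX2. NOX1 makes superoxide and works in a complex with the membrane subunit p22phox, encoded by Cyba, and with the organiser NOXO1 and the activator NOXA1. NOS2 makes nitric oxide from arginine without needing a rise in calcium, and in the gut DUOX2 and NOS2 are known as enzymes whose genes respond to microbes and to cytokines.

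Duox2 and Duoxa2 lie head to head, so the start regions of both are shown together with that of Nox1, the oxidase gene whose window held a match to an NF-kB element. The sequences are RefSeq windows of GRCm38.p6, the build that mm10 names, with 250 bases before and 50 after the annotated start, each read 5' to 3' on the strand of its gene. Duox2 is at chr2:122298178-122298477 on the minus strand, Duoxa2 at chr2:122298650-122298949 on the plus strand and Nox1 at chrX:134111805-134112104 on the minus strand. Capitals mark letters that match a searched motif.
Duox2: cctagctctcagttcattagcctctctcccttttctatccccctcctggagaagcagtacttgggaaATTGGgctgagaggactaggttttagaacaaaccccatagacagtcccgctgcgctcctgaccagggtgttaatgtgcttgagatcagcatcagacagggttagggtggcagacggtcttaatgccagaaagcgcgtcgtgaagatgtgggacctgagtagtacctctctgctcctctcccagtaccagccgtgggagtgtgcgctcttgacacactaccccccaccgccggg
Duoxa2: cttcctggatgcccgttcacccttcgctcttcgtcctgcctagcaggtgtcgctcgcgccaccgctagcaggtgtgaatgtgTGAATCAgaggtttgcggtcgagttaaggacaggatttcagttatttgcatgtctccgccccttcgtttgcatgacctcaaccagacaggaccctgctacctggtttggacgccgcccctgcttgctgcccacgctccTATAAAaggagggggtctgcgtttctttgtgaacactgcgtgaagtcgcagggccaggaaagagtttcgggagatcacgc
Nox1: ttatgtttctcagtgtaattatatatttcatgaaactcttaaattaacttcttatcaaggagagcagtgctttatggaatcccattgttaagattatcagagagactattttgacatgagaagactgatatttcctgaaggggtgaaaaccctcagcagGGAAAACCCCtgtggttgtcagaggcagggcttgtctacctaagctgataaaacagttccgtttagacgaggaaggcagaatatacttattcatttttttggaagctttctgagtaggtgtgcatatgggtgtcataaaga
The motifs searched on both strands were the GAS element (TTCNNNGAA), AP-1 (TGANTCA), the TATA box (TATAAA), the CCAAT box (CCAAT), and the NF-kB and ISRE elements. The capitals of Duox2 are a CCAAT box on the opposite strand, at -183 to -179 from the start. Those of Duoxa2 are an AP-1 match that reads on both strands, at -168 to -162, and a TATA box at -30 to -25. Those of Nox1 are an NF-kB match on the opposite strand, at -91 to -82. Of 32851 promoter windows of the same length, 37.4% held the CCAAT box, 13.6% the TATA box, 8.46% the NF-kB element, 8.30% the GAS element, 7.81% AP-1 and 5.92% the ISRE. The windows of Duox1, Duoxa1, Noxo1 and Cyba held none of these letters, and 7 of the 8 genes had a window.

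The depth was 29743061 to 31629435 counted fragments per sample in CD1d-KO and 23610266 to 29763051 in WT. The targeted genes were low where the labels place the deletion, with Cd1d1 at 0 to 8 counts in CD1d-KO and 50 to 94 in WT, and Cd1d2 at 0 to 2 against 3 to 5. Transcripts of the Y chromosome set 2 samples apart. CD1d-KO 1 and CD1d-KO 2 held 1722 and 2053 normalised counts of the Y-linked gene Ddx3y and 67.9 and 50.5 of Xist, which is transcribed from the inactive X chromosome, while the other 6 samples held 21985 to 35403 of Xist and at most 1.05 of Ddx3y. No WT sample held Y-linked transcripts at such a level, so in these libraries the sexes were not matched. The labels do not give the sex or the experiment of a sample, and fold changes and list counts are given below also without these 2 samples. Nnt, a mitochondrial source of NADPH that is disrupted in the C57BL/6J substrain, was at 4432 to 4979 normalised counts in CD1d-KO and at 1756 to 1902 in WT, and genotype and a difference in genetic background cannot be told apart here.

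The level of each gene was first set by transcript length, in TPM (a share of all transcripts) computed from the counts and the exon lengths of the table. In WT epithelium Cyba was highest at 176 ± 17.7 TPM (SD, n = 4), followed by Noxo1 at 107 ± 12.9 and Duox2 at 92.5 ± 22.2. Nos2 stood at 46.0 ± 10.8 TPM, Duoxa2 at 37.3 ± 11.1 and Nox1 at 15.6 ± 3.76. Duoxa1 and Duox1 were lowest, at 0.546 ± 0.290 and 0.439 ± 0.094 TPM. The ranges of neighbours in this order overlapped for Noxo1 and Duox2, for Nos2 and Duoxa2, and for Duoxa1 and Duox1. So the epithelium held almost only the Duox2 arm of the dual oxidases, and the organiser of the NOX1 complex was several times more abundant per length than Nox1 itself.

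In CD1d-KO epithelium the order was the same. Cyba was at 110 ± 4.54 TPM (SD, n = 4), Noxo1 at 90.1 ± 15.7, Duox2 at 40.4 ± 6.06, Nos2 at 12.4 ± 3.11, Duoxa2 at 11.97 ± 0.901 and Nox1 at 8.17 ± 3.65. Duoxa1 was at 0.549 ± 0.117 TPM and Duox1 at 0.314 ± 0.051. Ranges overlapped here for Cyba and Noxo1, for Nos2 and Duoxa2, and for Duoxa2 and Nox1. The order was also the same without the 2 samples that carried Y-linked counts.

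**Figure D1:**
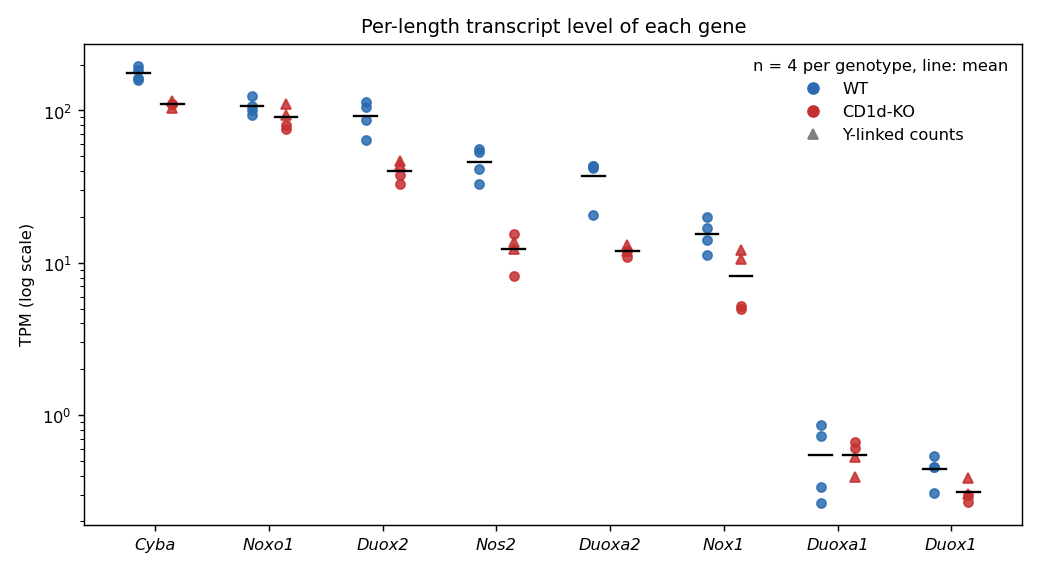
Level of the 8 genes in TPM on a log axis, with 1 point per sample (blue WT, red CD1d-KO, triangles for the 2 samples with Y-linked counts) and a line at each mean (n = 4). Cyba, Noxo1 and Duox2 lead in both genotypes, and Duoxa1 and Duox1 lie below 1 TPM in all samples.

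The genotypes were then compared gene by gene on normalised counts, which are fragment counts divided by a size factor per sample and can be compared between samples but not between genes. Duox2, Duoxa2, Nos2 and Cyba were lower in each CD1d-KO sample than in each WT sample. Nox1 and Noxo1 were lower on average with overlap. Duox1 and Duoxa1 also overlapped, at counts too low to show a moderate difference. In the DESeq2 fit over all genes, 4 of the 8 genes had an adjusted p under 0.05, each of them lower in CD1d-KO, against 4.03% of 15446 genes tested in either direction, 2.38% lower and 1.65% higher. The values of 4 of the 8 did not overlap between genotypes, against 9.61% of all genes tested. Since the choice of the 8 used this contrast, nothing is read from these shares. The median log2 fold change of the 8 was -0.81, beside 0.00099 over all genes tested. In bulk samples fewer cells of a type and less RNA per cell cannot be told apart.

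**Figure D2:**
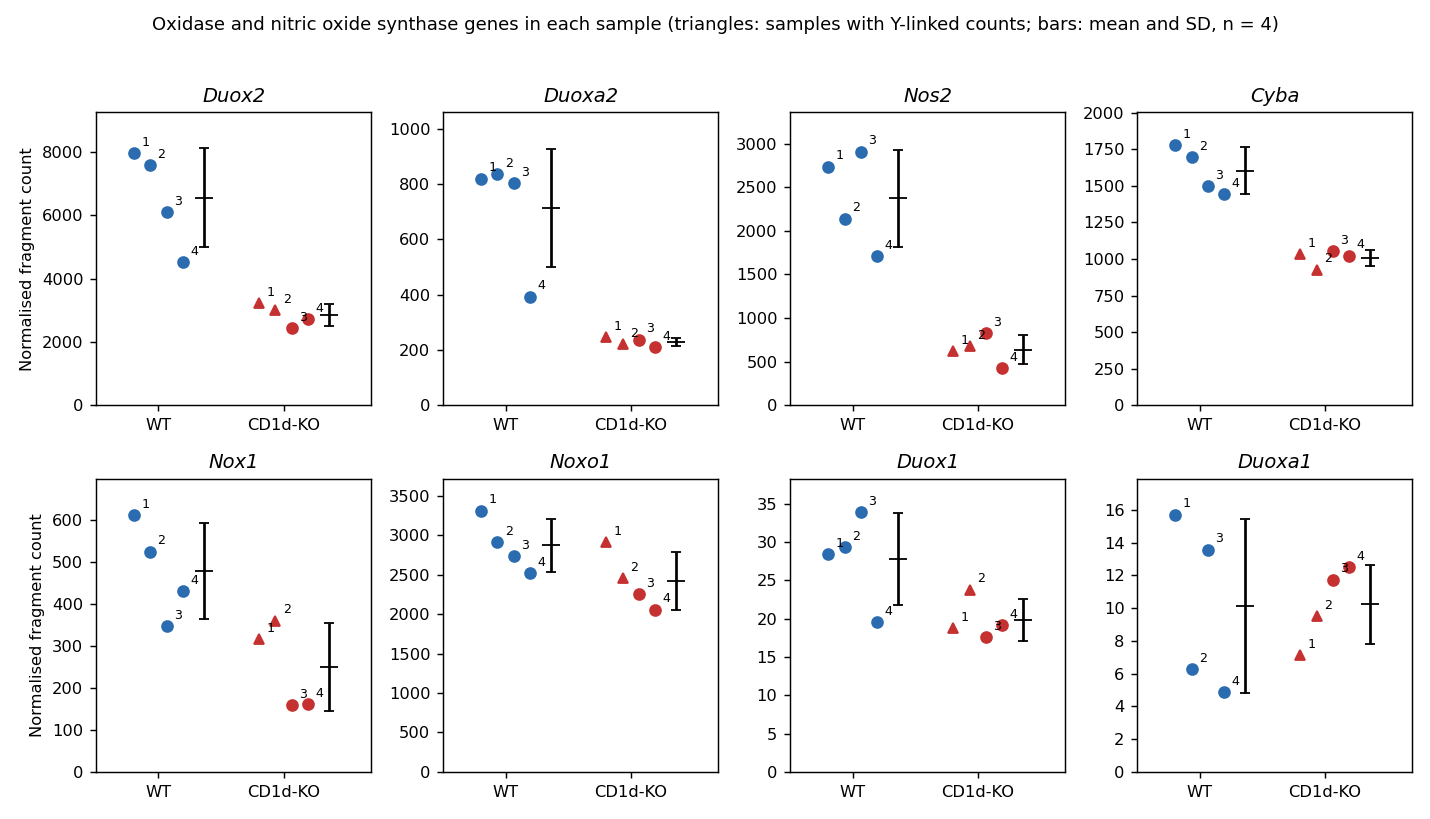
Normalised fragment counts of the 8 genes, 1 panel per gene from 0, with numbered samples (triangles for those with Y-linked counts) and bars for the mean and SD (n = 4). For Duox2, Duoxa2, Nos2 and Cyba the 4 CD1d-KO samples all sit below the 4 WT samples.

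Duox2, the dual oxidase of the gut and thyroid (mm10 chr2:122279247-122298227, minus strand), was at 3227, 3017, 2432 and 2727 normalised counts in CD1d-KO 1 to 4 and at 7965, 7588, 6108 and 4531 in WT 1 to 4. The groups did not overlap, and WT 4, the lowest WT sample, was still 1.40 times the highest CD1d-KO sample. The mean was 2851 ± 346 in CD1d-KO and 6548 ± 1566 in WT (SD, n = 4), a level in CD1d-KO that was 43.5% of WT and a log2 fold change of -1.20 ± 0.15 (SE). With both samples that carried Y-linked counts left out, it was -1.34.

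Duoxa2, which encodes the maturation factor that carries DUOX2 to the membrane (chr2:122298900-122302885, plus strand), was at 246, 221, 237 and 212 normalised counts in CD1d-KO 1 to 4 and at 820, 835, 805 and 394 in WT 1 to 4. The CD1d-KO samples lay close together, and WT 4 lay well below the other WT samples but was 1.601 times the highest CD1d-KO sample. The mean in CD1d-KO, 229 ± 15.3, was 32.1% of the mean in WT, 713 ± 213, with a log2 fold change of -1.64 ± 0.20 (SE), and -1.67 without the samples with Y-linked counts. The starts of Duoxa2 and Duox2 are 673 bases apart. Within genotypes, the deviations of both genes from their group means had a Pearson correlation of 0.82 over 8 samples, given as a description. WT 4 was the lowest WT sample for both genes, and the correlation without it was not computed. Whether the genes vary together among the other samples is therefore not shown. The ratio of Duoxa2 to Duox2 in TPM was 0.301 ± 0.0412 in CD1d-KO (range 0.271 to 0.361) and 0.399 ± 0.0689 in WT (range 0.321 to 0.487), so the ratios overlapped. In the 2 CD1d-KO samples free of Y-linked counts it was 0.288 to 0.361.

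Duox1 and Duoxa1, the paralogous pair of oxidase and maturation factor, lie beside them in one cluster of 68726 bases. Duox1 (chr2:122315672-122347972, plus strand) was at 18.8, 23.8, 17.6 and 19.2 normalised counts in CD1d-KO 1 to 4 and at 28.5, 29.3, 33.9 and 19.6 in WT 1 to 4, and WT 4 fell inside the CD1d-KO range. Its log2 fold change was -0.50 ± 0.33 (SE), and -0.60 without the samples with Y-linked counts. Duoxa1 (chr2:122303549-122313730, minus strand) was at 7.15, 9.52, 11.7 and 12.5 in CD1d-KO 1 to 4 and at 15.7, 6.29, 13.6 and 4.89 in WT 1 to 4, with full overlap. Its log2 fold change was -0.01 ± 0.54 (SE), and 0.25 without those 2 samples, so its sign was not fixed. With raw counts of 4 to 35 per sample for these genes, counting error alone was up to 25.0% of a value for Duox1 and 50% for Duoxa1, and a moderate difference was not detectable at this depth. The ratio of Duox2 to Duox1 in TPM was 129 ± 17.2 in CD1d-KO (range 113 to 154) and 212 ± 38.5 in WT (range 161 to 250), which did not overlap, and 124 to 127 in the 2 CD1d-KO samples free of Y-linked counts. Duox2 was chosen with its difference known and Duox1 had few counts, so this ratio is a description and adds no further result.

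The other genes within 100000 bases of the cluster that had a mean of at least 10 normalised counts were Sord, Shf and Slc28a2, and they did not move in one direction. Sord, which encodes sorbitol dehydrogenase, was higher in CD1d-KO (log2 fold change 0.47 ± 0.09 SE, adjusted p = 2.62e-05 by DESeq2). Shf, next to Duox1, had a log2 fold change of -0.13 ± 0.15 (SE, adjusted p = 0.790 by DESeq2). Slc28a2, which encodes a nucleoside transporter, was lower (-0.84 ± 0.13 SE, adjusted p = 8.04e-08 by DESeq2). Sord was at 0.36 and Slc28a2 at -0.92 without the samples with Y-linked counts, both still past the threshold. The call of Sord was lost with a gastric gene score as a covariate and that of Slc28a2 with a leukocyte gene score. Most calls were lost in these fits. Of the 622 genes called in the fit of all samples, 61 stayed called with the gastric score and 97 with the leukocyte score.

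**Figure D3:**
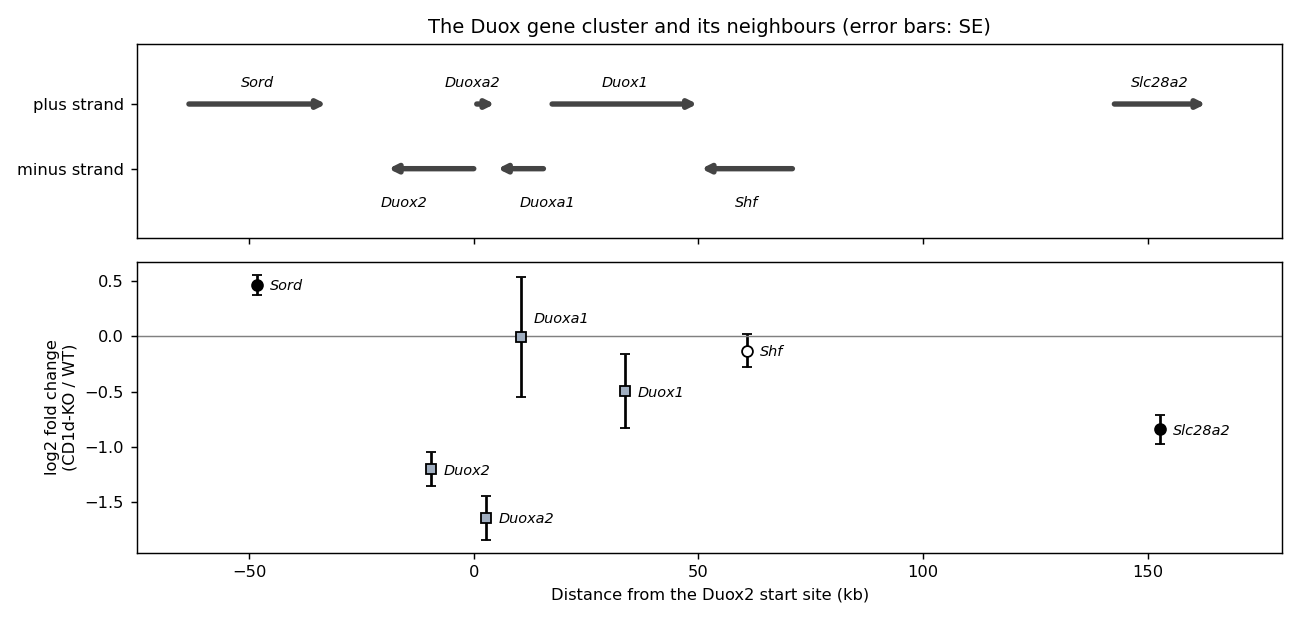
The Duox cluster by distance in kb from the Duox2 start, with each gene drawn to scale on its strand above and its log2 fold change with SE below (grey squares for the Duox and Duoxa genes, circles for neighbours, filled where the DESeq2 adjusted p was under 0.05). Duox2 and Duoxa2 lie lowest, at -1.20 and -1.64, between Sord at 0.47 and Duoxa1 at -0.01.

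Nos2, the inducible nitric oxide synthase (chr11:78920787-78960226, plus strand), had the largest fold change of the 8 genes. It was at 620, 683, 831 and 426 normalised counts in CD1d-KO 1 to 4 and at 2736, 2141, 2908 and 1707 in WT 1 to 4. The lowest WT sample was 2.05 times the highest CD1d-KO sample, the widest gap among the 8 genes. The mean of 640 ± 168 in CD1d-KO was 27.0% of the 2373 ± 553 in WT (SD, n = 4), a log2 fold change of -1.89 ± 0.25 (SE), and of -1.92 without the samples with Y-linked counts. Its deviations within genotypes had a Pearson correlation of 0.62 with those of Duoxa2 and of 0.29 with those of Duox2, over 8 samples. WT 4 was the lowest WT sample for each of these genes, and correlations without it were not computed. None of the 4 genes with a mean of at least 10 normalised counts within 100000 bases of Nos2 had an adjusted p under 0.05. Lgals9, the nearest, had a log2 fold change of -0.20 ± 0.08 (SE, adjusted p = 0.170 by DESeq2).

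Cyba, which encodes the p22phox subunit shared by NOX1 to NOX4 (chr8:122424771-122432940, minus strand), was at 1032, 928, 1054 and 1023 normalised counts in CD1d-KO 1 to 4 and at 1777, 1699, 1500 and 1444 in WT 1 to 4. The groups were tight and did not overlap, with the lowest WT sample 1.37 times the highest CD1d-KO sample. The mean in CD1d-KO, 1009 ± 55.8, was 62.9% of that in WT, 1605 ± 159 (SD, n = 4). The log2 fold change was -0.67 ± 0.09 (SE), and -0.63 without the samples with Y-linked counts.

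Nox1, the catalytic subunit that makes superoxide (chrX:134086421-134111854, minus strand), was at 317, 361, 158 and 161 normalised counts in CD1d-KO 1 to 4 and at 612, 525, 348 and 432 in WT 1 to 4. The CD1d-KO samples fell into a higher pair and a lower pair, and the higher pair was the one with Y-linked counts. CD1d-KO 2 was above WT 3, so the groups overlapped. The log2 fold change was -0.94 ± 0.35 (SE), and -1.58 ± 0.21 without the samples with Y-linked counts. Leaving out CD1d-KO 2, CD1d-KO 3 or CD1d-KO 4 alone gave -1.17, -0.78 and -0.78. Whether sex sets the level of this X-linked gene was not tested, since the WT samples held no such pair. Exons of Nox1 overlap those of Cstf2 by 402 bases, and fragments there were left out by the counting. The TPM of Nox1 was computed on its full exon length of 2563 bases. It is therefore somewhat too low, and the ratios of Noxo1 to Nox1 are somewhat too high, in both genotypes.

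Noxo1, the organiser that holds the NOX1 complex together (chr17:24696234-24700529, plus strand), was at 2910, 2453, 2258 and 2057 normalised counts in CD1d-KO 1 to 4 and at 3313, 2910, 2736 and 2523 in WT 1 to 4. These ranges overlapped, and the mean was 2419 ± 365 in CD1d-KO and 2871 ± 335 in WT (SD, n = 4). The log2 fold change was -0.25 ± 0.12 (SE), and -0.41 ± 0.11 without the samples with Y-linked counts. Leaving out 1 sample gave from -0.35, without CD1d-KO 1, to -0.17, without WT 1. The ratio of Noxo1 to Nox1 in TPM was 12.3 ± 3.88 in CD1d-KO (range 7.78 to 16.3) and 7.06 ± 1.31 in WT (range 6.204 to 9.002), with overlap, and 14.6 to 16.3 in the 2 CD1d-KO samples free of Y-linked counts. Within genotypes, Nox1 and Noxo1 deviated with a Pearson correlation of 0.76 over 8 samples. CD1d-KO 1 and CD1d-KO 2, which carried Y-linked counts, were the highest CD1d-KO samples for both genes, and the correlation without them was not computed.

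Without the 2 samples with Y-linked counts, 6 of the 8 genes, Nox1 and Noxo1 among them, had an adjusted p under 0.05, where 2.57% of all genes tested did. With edgeR's quasi-likelihood test on all 8 samples there were 4 of the 8, where 1.43% of all genes tested passed. These refits use the contrast that chose the genes, so they describe how the values move with the samples and add no support.

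Genes of other cells moved with the genotype, and their values are given beside these results. Of 24 leukocyte genes tested 7 were lower and 0 higher in CD1d-KO, with a median log2 fold change of -1.76, and their summed normalised counts were 1224 to 1453 in CD1d-KO and 1621 to 3481 in WT. Ptprc, which encodes CD45, was at 34.9 to 86.4 in CD1d-KO and 69.7 to 119 in WT. Without the samples with Y-linked counts 2 of 21 leukocyte genes were lower, without WT 1 it was 1 of 21, and in edgeR 0 of 14 (8 at an unadjusted p under 0.05), while without WT 4 there were 9 lower. Of 13 genes of gastric epithelium and Brunner's glands 6 were lower and 1 was higher, with a median of -4.95 and sums of 831 to 1740 in CD1d-KO and 2686 to 17797 in WT. Without the samples with Y-linked counts DESeq2 called 0 of 13 gastric genes (median -3.66) and edgeR on all samples 0 of 14 (median -4.40), each with 11 at an unadjusted p under 0.05, and leaving out single samples gave from 2 lower, without CD1d-KO 2, WT 3 or WT 4, to 10 lower, without CD1d-KO 4. With the leukocyte score of each sample as a covariate, the log2 fold change was -0.80 for Duox2, -1.21 for Duoxa2, -1.65 for Nos2, -0.48 for Cyba, -0.71 for Nox1 and -0.06 for Noxo1. With the gastric score as a covariate it was -1.59 ± 0.37 (SE) for Duox2, -1.91 ± 0.36 for Duoxa2, -2.33 ± 0.51 for Nos2, -0.81 ± 0.17 for Cyba, -2.07 ± 0.36 for Nox1 and -0.65 ± 0.18 for Noxo1. Neither score overlapped between genotypes, so each also takes up genotype. For these 6 genes the SE was larger with either score than without one, and a larger value is not a stronger effect. The part of these other cells in the values of the 8 genes was not tested.

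Markers of the sorted epithelium were high in both genotypes. Epcam was at 54141 to 58699 normalised counts in CD1d-KO and 52223 to 53483 in WT, and of 12 genes of epithelial identity 0 had an adjusted p under 0.05 in DESeq2, also 0 at an unadjusted p under 0.05, with a median log2 fold change of 0.00055. The 16 enterocyte, 12 crypt stem and 8 goblet cell genes tested gave 0 calls in DESeq2 (3, 2 and 0 at an unadjusted p under 0.05), with medians of 0.26, 0.11 and -0.10. Of the 16 enterocyte genes 4 were higher without the samples with Y-linked counts, and 6 without CD1d-KO 1, with 0 calls among the stem and goblet genes in DESeq2 without those samples (1 and 0 at an unadjusted p under 0.05). Of 10 Paneth cell genes 4 were higher in CD1d-KO and 0 lower, led by Defa26 (log2 fold change 0.81 ± 0.21 SE, adjusted p = 0.00592 by DESeq2), with a median of 0.73. Without the samples with Y-linked counts 4 were higher, Lyz1, Itln1, Defa17 and Defa26. Of the 10, edgeR called 0 and DESeq2 with the gastric score 0 (7 and 3 at an unadjusted p under 0.05), and leaving out single samples gave 1 (without CD1d-KO 1, WT 1 or WT 3) to 5 (without CD1d-KO 2). The 6 genes of stroma and endothelium tested gave 0 calls in DESeq2 and 0 at an unadjusted p under 0.05, with sums of 470 to 658 in CD1d-KO and 452 to 519 in WT.

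**Figure D4:**
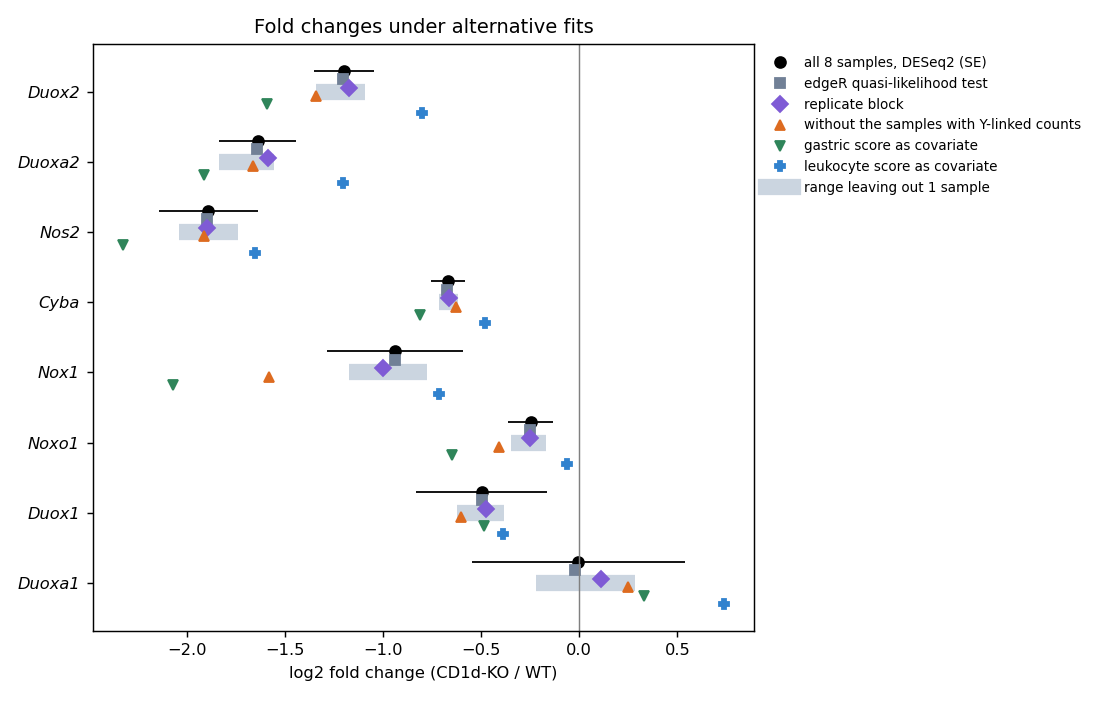
Log2 fold changes of the 8 genes in the fit of all 8 samples (black, with SE) and in 5 alternatives, with a grey bar for the range when 1 sample is left out. For Nox1 the values spread most, from -2.07 with the gastric score to -0.71 with the leukocyte score.

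The remaining parts of the NADPH oxidase family were examined next. Of 14 such genes 12 were tested, 1 was lower and 0 were higher in CD1d-KO, with a median log2 fold change of -0.30, and Nox3 and Nox4 had 0 counts in all samples. The 1 gene was Cybb, the NOX2 of phagocytes, which had 0 counts in each CD1d-KO sample and 12.8, 1.05, 3.88 and 2.44 normalised counts in WT 1 to 4 (adjusted p = 0.0436 by DESeq2). Its call was lost in 14 of the 16 alternatives that gave a value, among them each fit that left out 1 sample. Noxa1, the activator of NOX1, was at 1116 ± 234 in CD1d-KO and 1482 ± 331 in WT (SD, n = 4), with a log2 fold change of -0.41 ± 0.17 (SE, adjusted p = 0.168 by DESeq2). Cybc1, which helps p22phox and NOX2 mature, had -0.21 ± 0.08 (SE, adjusted p = 0.113 by DESeq2), and Rac1, the small GTPase that activates the complex, had 0.09 ± 0.05 (SE, adjusted p = 0.419 by DESeq2). Noxa1 was past the threshold without the samples with Y-linked counts (-0.68 ± 0.16 SE, adjusted p = 0.00267 by DESeq2), without CD1d-KO 1, without WT 3, with the gastric score, with Y-linked counts as a term and in the replicate block, and in these fits Cybb was not.

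The genes that serve NOS2 showed no common direction. Of 16 genes of the nitric oxide pathway tested, 0 were lower and 2 were higher in CD1d-KO, with a median log2 fold change of 0.05. Slc7a2, an arginine transporter, was at 580 ± 56.6 normalised counts in CD1d-KO and 414 ± 63.3 in WT (SD, n = 4; log2 fold change 0.49 ± 0.12 SE, adjusted p = 0.00526 by DESeq2). Qdpr, which recycles the cofactor tetrahydrobiopterin, had 0.22 ± 0.06 (SE, adjusted p = 0.0193 by DESeq2). Gch1, the first enzyme of the synthesis of that cofactor, had -0.28 ± 0.14 (SE, adjusted p = 0.326 by DESeq2), and Arg2, an arginase that draws on the same substrate, had 0.12 ± 0.15 (SE, adjusted p = 0.815 by DESeq2). Without the samples with Y-linked counts, in edgeR's quasi-likelihood test, with either score as a covariate, and without CD1d-KO 2 or WT 2, both calls were lost. That of Qdpr was lost in 10 of 18 alternatives, also when CD1d-KO 3 or CD1d-KO 4, or else WT 1 or WT 4, was left out.

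The enzymes that remove superoxide and hydrogen peroxide changed little. Of 26 tested, 0 were lower and 2 were higher in CD1d-KO, with a median log2 fold change of 0.02. Cat, which encodes catalase, was at 7552 ± 516 normalised counts in CD1d-KO and 5822 ± 440 in WT (SD, n = 4; log2 fold change 0.38 ± 0.08 SE, adjusted p = 0.000113 by DESeq2), a call that was lost with either score as a covariate. Gclm, a subunit of the enzyme that starts glutathione synthesis, had 0.28 ± 0.08 (SE, adjusted p = 0.0241 by DESeq2), a call that was lost in 11 of 18 alternatives, among them the fit without the samples with Y-linked counts. The glutathione peroxidase of the gut, Gpx2, had -0.26 ± 0.09 (SE, adjusted p = 0.0819 by DESeq2). With the gastric score it was lower past the threshold (-0.65 ± 0.12 SE, adjusted p = 1.97e-05 by DESeq2). So it was in the replicate block, without CD1d-KO 3 and without WT 3. It was not in edgeR, without the samples with Y-linked counts or with the leukocyte score. Of 5 heme peroxidases, which use hydrogen peroxide, Pxdn alone was tested (log2 fold change -0.57 ± 0.39 SE, adjusted p = 0.532 by DESeq2, and -1.20 ± 0.22 SE, adjusted p = 2.11e-05, without the samples with Y-linked counts), and Mpo had 0 counts. Of 12 genes that supply NADPH in the cytosol, 0 were lower and 1 was higher, Idh1, at 0.32 ± 0.10 (SE, adjusted p = 0.0452 by DESeq2), a call lost in 10 of 18 alternatives, and the median was 0.03.

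The receptors and signal transducers known to act upstream of Duox2 and Nos2 gave 4 lower and 1 higher of 29 tested, with a median log2 fold change of -0.13. Nod2, a sensor of bacterial peptidoglycan, was at 49.6 ± 12.4 normalised counts in CD1d-KO and 119 ± 29.2 in WT (SD, n = 4; log2 fold change -1.26 ± 0.25 SE, adjusted p = 5.56e-05 by DESeq2). Nfkb2, an NF-kB subunit, had -0.38 ± 0.08 (SE, adjusted p = 0.000137 by DESeq2), Stat3, which carries signals of interleukin-22, had -0.36 ± 0.08 (SE, adjusted p = 0.000304 by DESeq2), and Irf1, induced by interferon, had -0.33 ± 0.07 (SE, adjusted p = 0.000465 by DESeq2). The calls of Stat3, Irf1 and Ifngr1 were lost without the samples with Y-linked counts. The calls of all 4 lower genes were lost with the gastric score and with the leukocyte score as a covariate. In these fits 61 and 97 of all 622 called genes stayed called. Ifngr1, a chain of the interferon-gamma receptor, was the 1 gene that was higher in the fit of all samples (0.26 ± 0.06 SE, adjusted p = 0.00462 by DESeq2). Nfkbiz, a regulator of NF-kB targets, had -0.49 ± 0.17 (SE, adjusted p = 0.0649 by DESeq2).

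The microbe-responsive list holds epithelial genes commonly induced with Duox2 by microbes or by cytokines, and it does not separate these signals. Its genes were lower more often than not, with 12 lower and 1 higher of 19 tested and a median log2 fold change of -0.84. Pla2g5, a secreted phospholipase, was at 150 ± 26.7 normalised counts in CD1d-KO and 486 ± 174 in WT (SD, n = 4; log2 fold change -1.70 ± 0.21 SE, adjusted p = 2.22e-12 by DESeq2). The chemokine Ccl20 was at 43.3 ± 16.6 against 123 ± 16.3 (-1.496 ± 0.26 SE, adjusted p = 2.53e-06 by DESeq2). Dmbt1, a secreted scavenger receptor that binds bacteria, had -0.56 ± 0.06 (SE, adjusted p = 1.13e-14 by DESeq2), and Zc3h12a, an RNase that restrains inflammatory transcripts, had -0.84 ± 0.14 (SE, adjusted p = 5.20e-07 by DESeq2). The antimicrobial lectins Reg3g and Reg3b were also lower, and Reg3a was higher at 0.83 ± 0.16 (SE, adjusted p = 3.02e-05 by DESeq2). The calls of Reg3g and Reg3b were lost without the samples with Y-linked counts. In edgeR and with the gastric score none of these lectins was called, and with the leukocyte score only Reg3g was. This list and the others were written with earlier results of these samples known, so its direction is not independent evidence. Without the samples with Y-linked counts 8 of 18 were lower and 1 higher, and in edgeR 7 of 16 were lower and 0 higher. Pla2g5 and Ccl20 kept an adjusted p under 0.05 in all 18 alternatives, Dmbt1 lost it with the gastric score as a covariate and Zc3h12a with the leukocyte score.

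**Figure D5:**
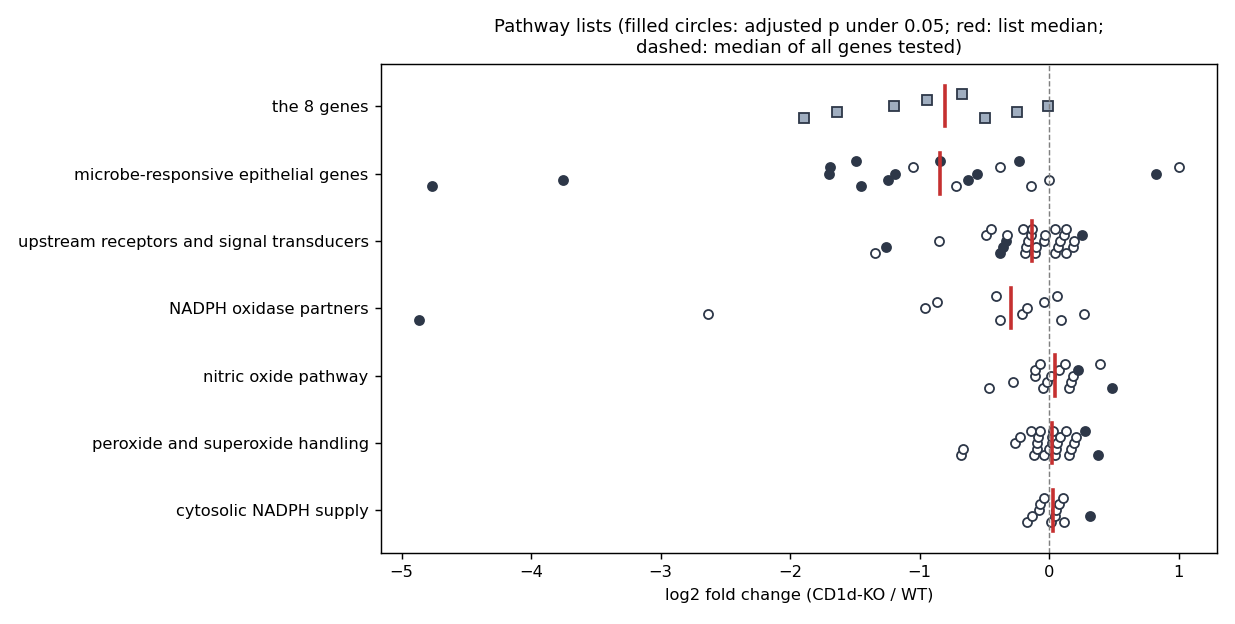
Log2 fold changes of the 8 genes and of the genes tested in 6 pathway lists, 1 point per gene, grey squares for the 8 genes and circles for the lists, the circles filled where the DESeq2 adjusted p was under 0.05, with the list median in red and the median of all genes dashed. The medians of the microbe-responsive list and of the 8 genes lie at -0.84 and -0.81, and those of the nitric oxide, peroxide and NADPH supply lists near 0. The 8 genes and the lists were chosen with earlier results of these data known, so these medians are a description only.

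The genes whose normalised counts were most like those of Duox2, Duoxa2 and Nos2 were found by Pearson correlation over the 8 samples among 11721 genes with a mean of at least 50. For Duox2 they were Slc49a4 at 0.99, Arhgap27, Usf1, Osbpl7 and Dock6, and for Duoxa2 they were Nfkb2 at 0.99, Ppp1r16a, Slc44a4, Pcsk7 and Dock6. For Nos2 they were Pofut2 at 0.97, Slc4a2, Aup1, Slc44a4 and Tecpr2. These samples share the difference between genotypes, which any gene that differs between them also follows. On deviations within genotypes the lists were others, with H4c12 first for Duox2 at 0.99, Ldlrad3 for Duoxa2 at 0.99 and Syngr1 for Nos2 at 0.96. With 8 samples and 11721 genes these are descriptions.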

How the data were processed

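RNA was profiled in 8 samples of sorted IECs, and the labels gave each its genotype and number. The authors deposited raw fragment counts per gene, made per the file headers by featureCounts 1.6.4 from exonic read pairs, with primary alignments, no use of strand and an mm10 gene annotation. The study's methods name HISAT2 and GRCm39 for the alignment, which conflicts with the mm10 annotation. If alignments of one build were counted on coordinates of the other, fragments would be misassigned, and this was not tested. Coordinates are those of the table (mm10), and 0 per-sample columns were left unused.

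The genotypes were compared in DESeq2 1.42.0 under R 4.3.3, which the study also used, with genotype as the only term, Cook's rule and independent filtering (mean normalised count of 2.41), and Benjamini-Hochberg adjustment over 15446 of the 19088 genes with counts. An adjusted p under 0.05 was called, which gave 622 genes (255 higher and 367 lower). P-values weigh the difference between genotypes against the spread among 4 mice per genotype. The mice came from 2 experiments, and neither experiment nor sex was a term, so that spread can hold both. Replicates differed by more than sampling noise (chi-square per degree of freedom 9.74 to 37.2 over 13710 genes). The 8 genes, the 15 gene lists and the tests were chosen with earlier results of these data known. Up to 4 called genes per list, by test statistic, were named. Other genes named from the lists, such as Noxa1, Cybc1, Rac1, Gch1, Arg2, Gpx2, Pxdn, Nfkbiz, Reg3b, Reg3g, Reg3a and Ifngr1, were chosen after their values were seen. List counts and ratios under the alternatives were added after seeing the data. Alternatives were edgeR 4.0.16, other size factors and filters, a replicate block, each sample left out, the samples with Y-linked counts left out or given a term, and gastric or leukocyte scores (mean centred log2 of normalised count + 1) as covariates. Scripts were tested on simulated data.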

Additional observations from a re-analysis of the deposited data

Results flagged for a closer look

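Duoxa2 in WT 4 stood apart from the other WT samples, with 393.7 normalised counts against 805 to 835 in WT 1 to 3. The gap to its nearest neighbour was 0.931 of the range of the group, above Dixon's 95% critical value for 4 samples. The 8 genes in both genotypes gave 16 such groups and 1 was flagged, and chance flags about 1 in 20. WT 4 was also the lowest WT sample for Duox2, Nos2, Cyba, Noxo1, Duox1 and Duoxa1, but not for Nox1, and it had the lowest depth (23610266 fragments) and the lowest leukocyte score of the WT samples. Without it the log2 fold change of Duoxa2 was -1.84. The part of depth or of leukocyte RNA in this value was not tested.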

How the results depend on the processing

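Of all genes tested, 622 were called in the fit of all samples, 198 by edgeR's quasi-likelihood test, 372 without the samples with Y-linked counts, 97 with the gastric score as a covariate and 119 with the leukocyte score. Leaving out 1 sample gave 323 to 646 called genes, with 323 without CD1d-KO 2, 385 without WT 2 and 406 without WT 1. Over 18 alternatives the log2 fold change ranged from -1.59 to -0.80 for Duox2, -1.91 to -1.21 for Duoxa2, -2.33 to -1.65 for Nos2, -0.81 to -0.48 for Cyba, -2.07 to -0.71 for Nox1, -0.65 to -0.06 for Noxo1, -0.63 to -0.39 for Duox1 and -0.22 to 0.74 for Duoxa1. Vsig1, a gastric gene, reversed to 0.064 with the gastric score, of which it is a part.

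With a replicate block 569 genes were called, of which 434 were among the 622, with Noxo1 at -0.25. Same-numbered samples deviated together with correlations of 0.29, 0.03, 0.22 and 0.0040, and 2 of 4 CD1d-KO samples correlated best with their own number, so the numbers were not taken as pairs. The cause of these differences was not tested. Scores built from genes that differ between genotypes also take up genotype. Depth limited Duox1 and Duoxa1, with 4 to 35 counts per sample.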
